A study of Homo sapiens with 4 samples.

Results

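The S100 genes encode small calcium-binding proteins, and 10 of them were examined here across cultured lung cancer cells: S100A2, S100A4, S100A6, S100A8, S100A9, S100A10, S100A11, S100A14, S100A16 and S100P. They were chosen by name and not by their values, and are 10 of the 19973 genes in the table of corrected counts, which held all 10. Of 11 other S100 genes looked for, 6 were in that table. Of those 6, S100A13 had between 119 and 368 counts per 1000000 (CPM) in every sub-population, while S100A1, S100A3, S100A5, S100A12 and S100Z stayed at or under 5.16 CPM.

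Single-cell RNA sequencing was carried out by the authors on 4 lines, with 1 library per line. R2 cells came from brain metastases of PC9-BrM4 in mice given osimertinib, an EGFR kinase inhibitor, and C2 cells came from the same selection in mice given vehicle. PC9-BrM4, labelled BM4, had been selected from PC9 in mice for growth in the brain, and PC9 is the parental line, a lung adenocarcinoma of human origin with an exon 19 deletion in EGFR. All cells were grown for 3 days in culture without osimertinib, so that every group shared the EGFR deletion and none was under drug. The methods of the study state that 3 passages of each line were combined before capture, so a line is 1 pooled culture and has no replicate. The authors clustered all lines together into 19 sub-populations, numbered 0 to 18, and each deposited column averages the cells of 1 of them. The study places sub-populations 1 and 5 in R2 and 0 and 4 in C2 as the most prevalent there, 8 in both alike, and its plot places 6 and 7 in BM4 and 2 and 3 in PC9. Where a line is named below, these are the sub-populations meant. A column can hold cells of other lines as well, since the study describes those that dominate C2 or R2 as present, more rarely, in PC9 and PC9-BrM4, and the cells of each line could not be separated here.

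S100 proteins work mostly as dimers. Calcium binding to a pair of EF-hand loops opens a face that grips a partner, and each member has its own set of partners. Inside cells they act on myosin, annexins, membrane repair and cell motility. Some are also released, and S100A8 and S100A9 together form calprotectin, an abundant protein of neutrophils that epithelia make under stress. Several members are long-standing markers of metastasis or of squamous and secretory epithelium, and most of the genes sit in 1 cluster on the long arm of chromosome 1, beside the genes of the epidermal differentiation complex.

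Levels are given in CPM, from the corrected unique molecular identifiers (UMIs) of a gene in that sub-population. Intervals are exact 95% Poisson intervals of the summed UMIs and cover counting error only. A difference is that of the mean log2(CPM + 5) between sets of sub-populations. A gene counted as measured at a mean of 10 CPM or more, and was called higher or lower at a difference of 1 or more in size with no overlap between the sets. No statistical test was made, because sub-populations are not replicates and were formed from the same expression values. The share of all measured genes called the same way is given beside each count of members. Values of different genes are not compared as levels. A lower mean in a sub-population can come from fewer cells with the transcript or from less of it per cell, and the means alone cannot tell these apart.

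The 19 sub-populations held 24441 cells, from 111 in sub-population 18 to 3373 in sub-population 0, with 12491 to 15635 corrected UMIs per cell. The relative raw depth estimated from the second deposited table was 0.884 to 1.22 in sub-populations 0 to 8, and 0.366, 0.408 and 0.493 in 13, 14 and 16. Epithelial markers were present throughout: 8 of 9 averaged 10 CPM or more, and their sum was 22105 CPM in sub-population 8, 19766 to 25615 CPM in the C2 and R2 sub-populations and 17528 to 20303 CPM in those of PC9 and BM4. Because S100A8 and S100A9 are best known from myeloid cells, 12 neutrophil and monocyte markers were read as well. Of these, 8 were in the table and 1, CD68, reached a mean of 10 CPM. PTPRC, the pan-leukocyte surface marker, was at 0 in sub-population 8 and at most 0.252 CPM anywhere, and CSF3R was at 0 in sub-population 8. CD68, a lysosomal protein that is not confined to macrophages, was at 64.2 CPM in the C2 and R2 sub-populations and at 27.9 CPM in those of PC9 and BM4. Fibroblast and melanocyte or glial markers had no gene at a mean of 10 CPM, and of 8 basal keratinocyte markers KRT15 alone did. Doublets and free RNA in the droplets were not assessed.

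The promoters of the 4 members whose level varied most over sub-populations 0 to 8 are shown first. Each has the letters TATAAA shortly before its start, and the other 6 do not. Each line holds the 100 bases before the transcription start, from RefSeq on GRCh38.p14, in the sense of the gene, with the letters TATAAA in capitals. S100A10, with a narrower range, is shown for contrast.
S100A4: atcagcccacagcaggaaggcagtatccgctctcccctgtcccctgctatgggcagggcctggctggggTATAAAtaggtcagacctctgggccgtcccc
S100A8: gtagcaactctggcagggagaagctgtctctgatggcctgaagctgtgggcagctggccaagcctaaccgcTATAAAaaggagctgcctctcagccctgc
S100A9: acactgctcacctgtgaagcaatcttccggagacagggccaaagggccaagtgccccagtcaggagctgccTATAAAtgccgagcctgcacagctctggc
S100P: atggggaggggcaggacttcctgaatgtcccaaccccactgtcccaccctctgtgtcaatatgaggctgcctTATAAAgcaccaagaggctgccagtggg
S100A10: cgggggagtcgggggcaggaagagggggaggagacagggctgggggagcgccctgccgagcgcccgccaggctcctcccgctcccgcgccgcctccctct
These windows lie at chr1:153545807-153545906 on the minus strand for S100A4, chr1:153391074-153391173 on the minus strand for S100A8, chr1:153357754-153357853 on the plus strand for S100A9, chr4:6693778-6693877 on the plus strand for S100P and chr1:151993860-151993959 on the minus strand for S100A10.

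The motifs and these 4 members were picked after the values had been seen, and a match is only a description of these letters. The log2 ranges run on from 1.58 for S100P to 1.47 for S100A14, so no gap sets the 4 apart. The first base of TATAAA, the core of the TATA box, stood 31 bases before the start in S100A4, 29 bases before it in S100A8 and in S100A9, and 28 bases before it in S100P. Of 27305 RefSeq promoters, 657 (2.41%) have TATAAA on the sense strand with its first base 25 to 35 bases before the start. S100A6 and S100A14 have TATAAG at 30 and 29 bases before the start, which 1.0% of promoters have in that window, and the other 4 members have neither. S100A13 also has TATAAA, 29 bases before its start, and its level ranged by less than any of the 4, from 211 to 351 CPM over sub-populations 0 to 8. Of the measured genes with a RefSeq promoter under their symbol, 83 had TATAAA in that position and 5893 did not. Members were not left out of these genes, so the values that led to the choice of the motif are in part counted again. The sets were not matched for level. The log2 range over sub-populations 0 to 8 had a median of 0.93 in the 83 and 0.78 in the 5893. It was 1 or more in 39.8% and 25.8% of them, a difference that was not tested. On either strand of the window from 250 bases before to 50 after the start, the AP-1 motif TGANTCA was in S100A2 alone of the 10 members (7.76% of all promoters), as TGACTCA with its first base 52 before the start, and the CArG box bound by SRF was in none of the 10 (1.29%).

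Over sub-populations 0 to 8 the members differed widely, and without a break, in how much their level varied. The log2 range, on the scale of log2(CPM + 5), was 4.46 for S100A4, 3.48 for S100A8, 2.81 for S100A9 and 1.58 for S100P, each wider than in at least 95.5% of measured genes. S100A8 itself had a mean under the limit of 10 CPM over these sub-populations. Its range rests on sub-population 8, at 52.7 CPM, with 8.70 CPM or less in the others. S100A14 followed at 1.47, wider than in 94.1% of genes. For S100A10 it was 1.04, for S100A6 0.91 and for S100A16 0.86, wider than in 77.2%, 65.7% and 59.7% of genes. For S100A2 it was 0.69 and for S100A11 0.61, wider than in 37.7% and 27.6%. Together the 10 members made up 1.002% of all corrected UMIs in sub-population 8, between 0.665% and 0.854% in the C2, R2, BM4 and PC9 sub-populations, and 1.11% in sub-population 14, the highest of the 19.

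**Figure D1:**
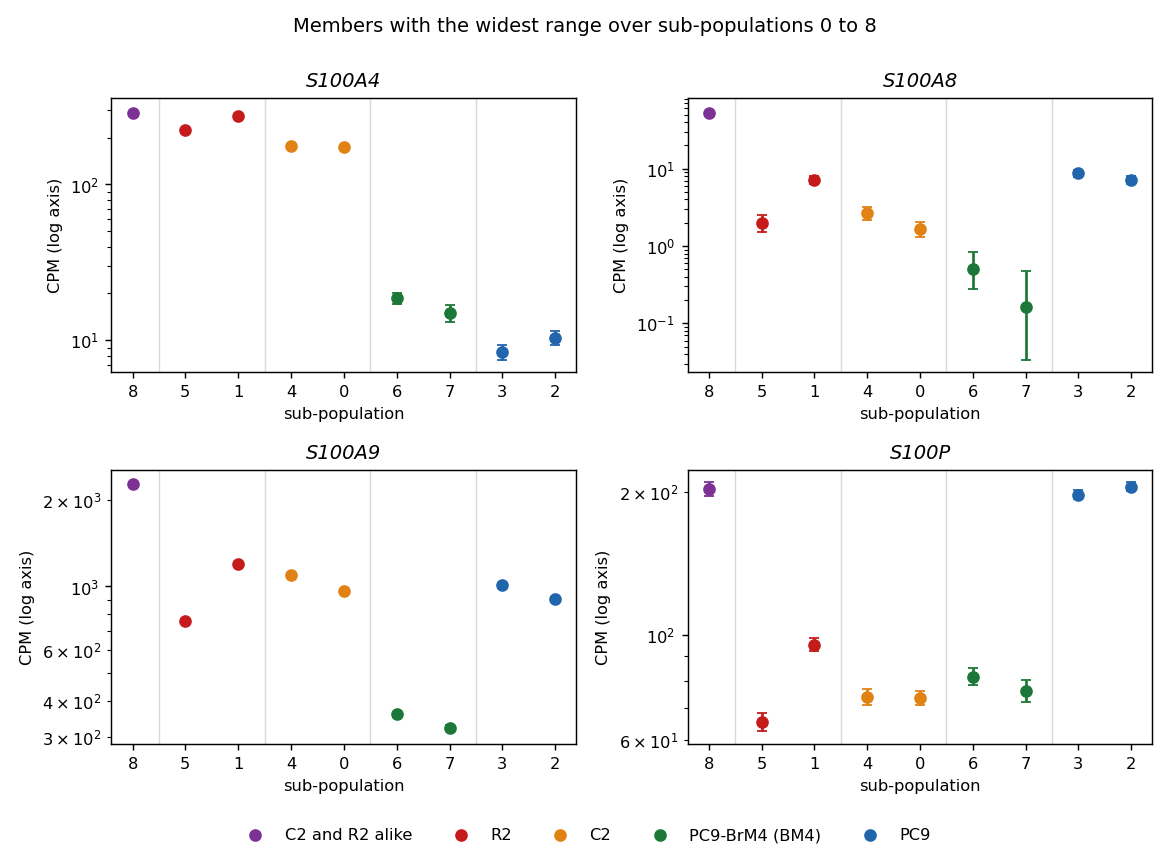
CPM (log axes) of S100A4, S100A8, S100A9 and S100P in sub-populations 0 to 8, coloured by the line in which each is placed, with 95% Poisson intervals of counting error. S100A4 lies at 173 CPM or more in sub-populations 8, 5, 1, 4 and 0 and at 18.6 CPM or less in 6, 7, 3 and 2, and sub-population 8 holds the highest S100A8 and S100A9.

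S100A4 binds the tail of non-muscle myosin IIA and loosens its filaments, and is a classic marker of motile and metastatic cells. Its level differed most between the sub-populations placed in C2 or R2 and those placed in PC9 or BM4. It was at 273 and 225 CPM in the R2 sub-populations 1 and 5, at 173 and 177 CPM in the C2 sub-populations 0 and 4, and at 289 CPM in sub-population 8. It was at 18.6 and 14.9 CPM in the BM4 sub-populations 6 and 7, and at 10.4 and 8.38 CPM in the PC9 sub-populations 2 and 3. Every C2 and R2 sub-population thus lay above every PC9 and BM4 sub-population, and the lowest of the C2 and R2 values was 173 CPM (95% interval 169 to 177). In the order of all 19 sub-populations, 9 pairs of neighbours had overlapping 95% intervals: 5 and 10, 10 and 14, 14 and 17, 4 and 0, 13 and 15, 18 and 6, 6 and 12, 12 and 7, and 3 and 11. Such an overlap does not show that the values are alike.

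S100A8 and S100A9 are the chains of calprotectin, which binds zinc and manganese and signals through TLR4 and the receptor RAGE. S100A9 was at 2282 CPM in sub-population 8, at 1195 and 757 CPM in the R2 sub-populations 1 and 5, at 963 and 1092 CPM in the C2 sub-populations 0 and 4, at 359 and 321 CPM in the BM4 sub-populations 6 and 7, and at 902 and 1013 CPM in the PC9 sub-populations 2 and 3. The BM4 values were therefore the lowest and sub-population 8 the highest of the 9. S100A8 was scarce outside sub-population 8, where it reached 52.7 CPM (49.4 to 56.2). It was at 7.08 and 1.96 CPM in the R2 sub-populations 1 and 5, at 1.65 and 2.66 CPM in the C2 sub-populations 0 and 4, at 0.506 and 0.164 CPM in the BM4 sub-populations 6 and 7, and at 7.18 and 8.70 CPM in the PC9 sub-populations 2 and 3. For each corrected UMI of S100A8 there were 43.3 of S100A9 in sub-population 8, and between 117 and 1956 in sub-populations 0 to 7. This is a ratio of UMIs, not of protein chains, and it sets sub-population 8 apart from the other 8.

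S100P binds ezrin and RAGE and is made by many carcinomas. It was at 203 CPM in sub-population 8, at 95.2 and 65.3 CPM in the R2 sub-populations 1 and 5, at 73.5 and 73.9 CPM in the C2 sub-populations 0 and 4, at 81.5 and 75.9 CPM in the BM4 sub-populations 6 and 7, and at 205 and 197 CPM in the PC9 sub-populations 2 and 3. Sub-population 8 thus stood with PC9, with a 95% interval that overlapped those of both PC9 sub-populations, and the BM4, C2 and R2 sub-populations lay lower.

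S100A10 and S100A11 are annexin partners: S100A10, or p11, holds annexin A2 in a membrane-bound tetramer that also captures plasminogen, and S100A11 pairs with annexin A1. S100A10 was at 1279 and 1212 CPM in the R2 sub-populations 1 and 5, at 1138 and 1050 CPM in the C2 sub-populations 0 and 4 and at 1241 CPM in 8. It was at 2088 and 2167 CPM in the BM4 sub-populations 6 and 7 and at 1733 and 1711 CPM in the PC9 sub-populations 2 and 3. The sets did not overlap, with every C2 and R2 value lower. S100A11 moved little and overlapped between the sides, from 1569 to 2020 CPM in the C2 and R2 sub-populations and from 1370 to 2100 CPM in those of PC9 and BM4. S100A6, or calcyclin, which binds the ubiquitin ligase adaptor CACYBP, was at 2161 to 2919 CPM in the C2 and R2 sub-populations, at 3340 CPM in 8 and at 1770 to 2056 CPM in those of PC9 and BM4, again with no overlap. The share of all genes without overlap between these sides, whatever the size of the difference, was not worked out.

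S100A14 and S100A16 are epithelial members whose genes are next to each other, and S100A2 is a nuclear member known from basal and squamous epithelium. S100A14 was between 339 and 511 CPM in the C2 and R2 sub-populations, at 831 and 949 CPM in the BM4 sub-populations 6 and 7, and at 543 and 440 CPM in the PC9 sub-populations 2 and 3. S100A16 was between 173 and 236 CPM in the C2 and R2 sub-populations, at 313 and 316 CPM in those of BM4, and at 236 and 231 CPM in those of PC9. Of sub-populations 0 to 8, those of BM4 thus had the highest values of both. S100A2 was at 21.4 and 25.2 CPM in the R2 sub-populations 1 and 5, at 13.9 and 16.01 CPM in the C2 sub-populations 0 and 4, at 21.2 and 19.05 CPM in those of BM4 and at 13.8 and 14.6 CPM in those of PC9.

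**Figure D2:**
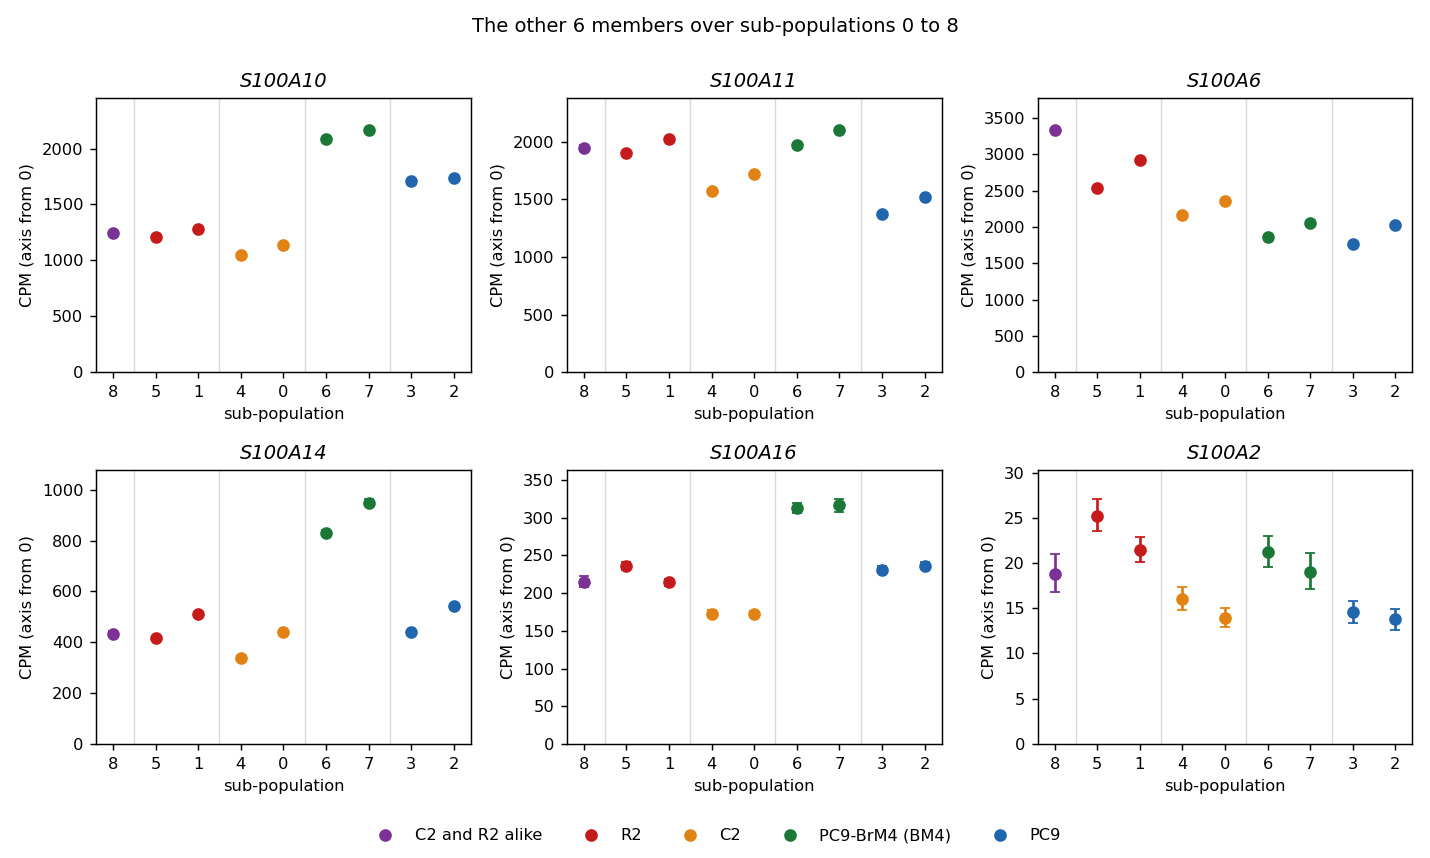
CPM (axes from 0) of S100A10, S100A11, S100A6, S100A14, S100A16 and S100A2 in sub-populations 0 to 8, coloured by line, with 95% Poisson intervals. S100A10, S100A14 and S100A16 are highest in the BM4 sub-populations 6 and 7, and S100A6 in sub-population 8.

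The first comparison set the C2 and R2 sub-populations against those of PC9 and BM4, to ask how lines from the further selection in the brain differ from their parents. S100A4 was higher by 3.60 (95% counting interval 3.54 to 3.65), at a mean of 212 CPM in C2 and R2 against 13.1 CPM in PC9 and BM4, or 16.2-fold in mean CPM. It was the 1 member called of 9 measured, with no member called lower. Of all 7397 measured genes 105 (1.42%) were called higher and 76 (1.03%) lower. The other members moved by less than 1: S100A9 by 0.79, S100A6 by 0.36, S100A2 by 0.11, S100A11 by 0.07 (−0.03 after the correction for transcript length described with the processing), S100A16 by −0.45, S100A14 by −0.64, S100P by −0.69 and S100A10 by −0.71. The median of the 9 was 0.07, against −0.14 over all genes. Leaving out any 1 of the 8 sub-populations kept S100A4 between 3.46 and 3.74. The sign was less stable for others: with the second deposited table, S100A9 was at −0.29, S100A6 at −0.13 and S100A11 at −0.24, and leaving out 1 sub-population took S100A11 as low as −0.04 and S100A2 to −0.0015.

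R2 against C2 asks what selection under osimertinib added to growth in the brain. No member was called in either direction, and 25 of 7133 genes (0.35%) were, all of them lower. Small differences pointed mostly to R2: 8 of 9 measured members were above 0, with S100A2 at 0.50, S100A4 at 0.49, S100A16 at 0.37, S100A6 at 0.27, S100A14 and S100A11 at 0.26, S100A10 at 0.19 and S100P at 0.09, and S100A9 at −0.11. These 2 sub-populations a side do not overlap for S100A2, S100A4, S100A6, S100A10, S100A11 and S100A16. The share of all genes without overlap was not worked out, so this only describes the values. For 5 members the sign turned under an alternative. After subtracting the median difference of genes of like transcript length, S100A10 was at −0.07, S100A11 at −0.0036 and S100P at −0.17. With the second deposited table, S100A9 was at 0.97 and S100A14 at −0.095. Without sub-population 5 S100A9 was at 0.22, and without sub-population 1 S100P was at −0.16.

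BM4 against PC9 covers the earlier selection for growth in the brain. Of 9 measured members S100A9 and S100P were called lower. Among all 7568 measured genes 29 (0.383%) were called lower and 7 (0.0925%) higher. S100A9 averaged 340 CPM in BM4 and 958 CPM in PC9, a difference of −1.48 (−1.50 to −1.45). S100P averaged 78.7 CPM in BM4 and 201 CPM in PC9, a difference of −1.30 (−1.35 to −1.25). S100A8 was under the limit of 10 CPM on both sides and so was not measured, but its sums were 17 UMIs in the BM4 sub-populations against 642 UMIs in those of PC9, or 0.335 against 7.94 CPM. The other 7 measured members were above 0, with S100A14 at 0.85, S100A4 at 0.59, S100A11 at 0.49, S100A16 at 0.42, S100A2 at 0.39, S100A10 at 0.30 and S100A6 at 0.05. With the second table, S100A6 (−1.08, called lower) and S100A16 (−0.57) turned sign, and S100A6 was also below 0 without sub-population 3 (−0.05) or 7 (−0.026). The median of the 9 was 0.39 against −0.11 over all genes.

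Sub-population 8, shared by C2 and R2, was set against the C2 and R2 sub-populations 0, 1, 4 and 5. All 10 members were measured, and 3 were called higher, where 45 of 7159 genes (0.629%) were called higher and 44 (0.615%) lower. S100A8 was at 52.7 against 3.34 CPM (difference 2.83, 2.74 to 2.93), which is 15.8-fold in CPM. It passed the limit of 10 CPM through its level in sub-population 8 itself, and was not measured, so not called, with a limit of 50 CPM. S100P was at 203 against 77.0 CPM (1.35, 1.30 to 1.41) and S100A9 at 2282 against 1002 CPM (1.20, 1.19 to 1.22). S100A4 at 0.46 and S100A6 at 0.43 were also outside the range of the other 4 without reaching 1, and the remaining 5 lay between 0.00 and 0.12. The share of all genes outside that range, whatever the size of the difference, was not worked out. Of 13 measured genes of the G2/M list, which are at their highest around mitosis, 10 were called lower in sub-population 8, among them CCNB1 at 42.8 against 170 CPM and MKI67 at 53.3 against 152 CPM. Their part in the S100 differences was not tested.

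**Figure D3:**
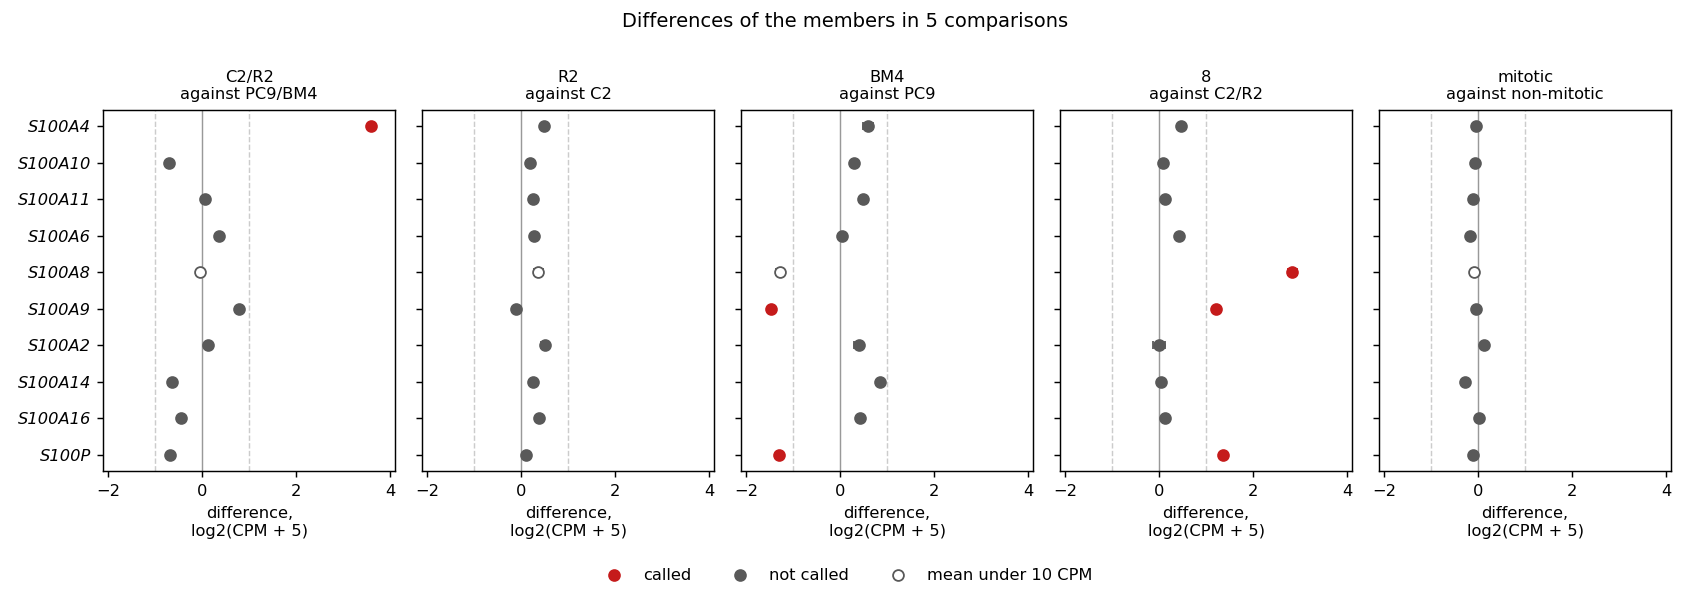
Differences of the 10 members on the log2(CPM + 5) scale in 5 comparisons, with 95% counting intervals and dashed lines at 1 in each direction. Filled red points are called, S100A4 in C2/R2, S100A9 and S100P in BM4 and S100A8, S100A9 and S100P in sub-population 8, and open points have a mean under 10 CPM.

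Mitotic against non-mitotic sub-populations were compared within each line, 5 against 1 in R2, 4 against 0 in C2, 6 against 7 in BM4 and 3 against 2 in PC9. These 2 names are used here for short and are given neither by the labels nor by the study. No member was called, where 55 of 7397 genes (0.744%) were, all higher, including TOP2A at 337 against 60.8 CPM. Of the 14 genes of the G2/M list 11 were above 0 and 6 were called higher, and the lowest difference was −0.33. CCNB1, a cyclin of mitotic entry, was not among those called, at 174 against 198 CPM. S100A14 was below 0 in every line, at −0.29 in R2, −0.37 in C2, −0.19 in BM4 and −0.30 in PC9. S100A6, S100A10 and S100A11 were likewise below 0 in all 4 lines, with means of −0.17, −0.07 and −0.11, while the median over all genes was 0.18. The share of all genes below 0 in all 4 lines was not worked out. S100A9 differed between lines: it was at 757 CPM in mitotic against 1195 CPM in non-mitotic R2 sub-populations, but at 1092 against 963 CPM in C2, at 359 against 321 CPM in BM4 and at 1013 against 902 CPM in PC9.

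The second deposited table holds the mean over cells of e to the power of the raw count, minus 1. Its values let the highest raw count in any cell be bounded, and where 1 cell outweighs all others, be read exactly. This reading was chosen after the values had been seen. For S100A9 the highest count was 350 UMIs in sub-population 8, 248 in the R2 sub-population 1, 114 and at most 41 in the BM4 sub-populations 6 and 7, and 376 and 225 in the PC9 sub-populations 2 and 3. In the PC9 sub-population 2 that is 28.2 times the mean of 13.3 corrected UMIs per cell. The median of the same ratio over 149 genes with a mean within a factor of 2 was 3.69, and none of them reached 28.2. In the R2 sub-population 1 the ratio was 14.3 against a median of 3.50, and none of 119 genes of similar mean reached it. Such cells were not particular to S100A9. In the PC9 sub-population 2 the highest count of S100A6 was 245 UMIs, and none of 103 genes of similar mean reached its ratio. The ratios of S100A11 and S100P there exceeded those of 98.3% and 99.3% of such genes, and that of S100A2 exceeded 56.2%.

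S100A8 was uneven over cells in some sub-populations and not in others. A single cell held 29 UMIs in the R2 sub-population 1 and another held 25 in the PC9 sub-population 3, where the means were 0.102 and 0.134 corrected UMIs per cell, so the highest count was 283 and 187 times the mean. The medians over genes of similar mean were 56.0 and 40.8, and 1 gene of 4167 and 1 of 3832 reached the ratio of S100A8. The highest count was at most 53 in sub-population 8 and 19 in the PC9 sub-population 2, where 1 of 2907 and none of 3886 genes reached its ratio. In the R2 sub-population 5, the C2 sub-populations 0 and 4 and the BM4 sub-population 6 its ratio exceeded that of 55.6%, 70.7%, 80.2% and 61.3% of genes of similar mean, and in the BM4 sub-population 7, with 3 UMIs in all, that of 0.715%. Where counts were low enough, the number of cells with any S100A8 UMI could be worked out. It was 53 of 2047 cells (2.59%, exact binomial 95% interval 1.95 to 3.37) in the R2 sub-population 5, 68 of 3373 (2.02%, 1.57 to 2.55) and 73 of 2603 (2.80%, 2.205 to 3.51) in the C2 sub-populations 0 and 4, and 13 of 1844 (0.705%, 0.376 to 1.20) and 3 of 1277 (0.235%, 0.0485 to 0.685) in the BM4 sub-populations 6 and 7. The culture holds no cell type that should lack the gene, so no background share could be set, and free RNA was not tested. Relative raw depth was 1.02 in sub-population 5, 0.884 and 0.985 in 0 and 4, and 1.01 and 0.937 in 6 and 7. Outliers of this kind were also seen for S100A4 in the sub-populations where it was high: the highest count was at most 59 in sub-population 8, 55 and 38 in R2 and 25 and 32 in C2, and its ratio was above that of at least 97.7% of genes of similar mean. In PC9 and BM4, where S100A4 was low, the highest counts were at most 8 and the ratio exceeded that of 48.9% to 76.6% of such genes. Whether the cells with high counts were large cells or doublets was not tested.

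**Figure D4:**
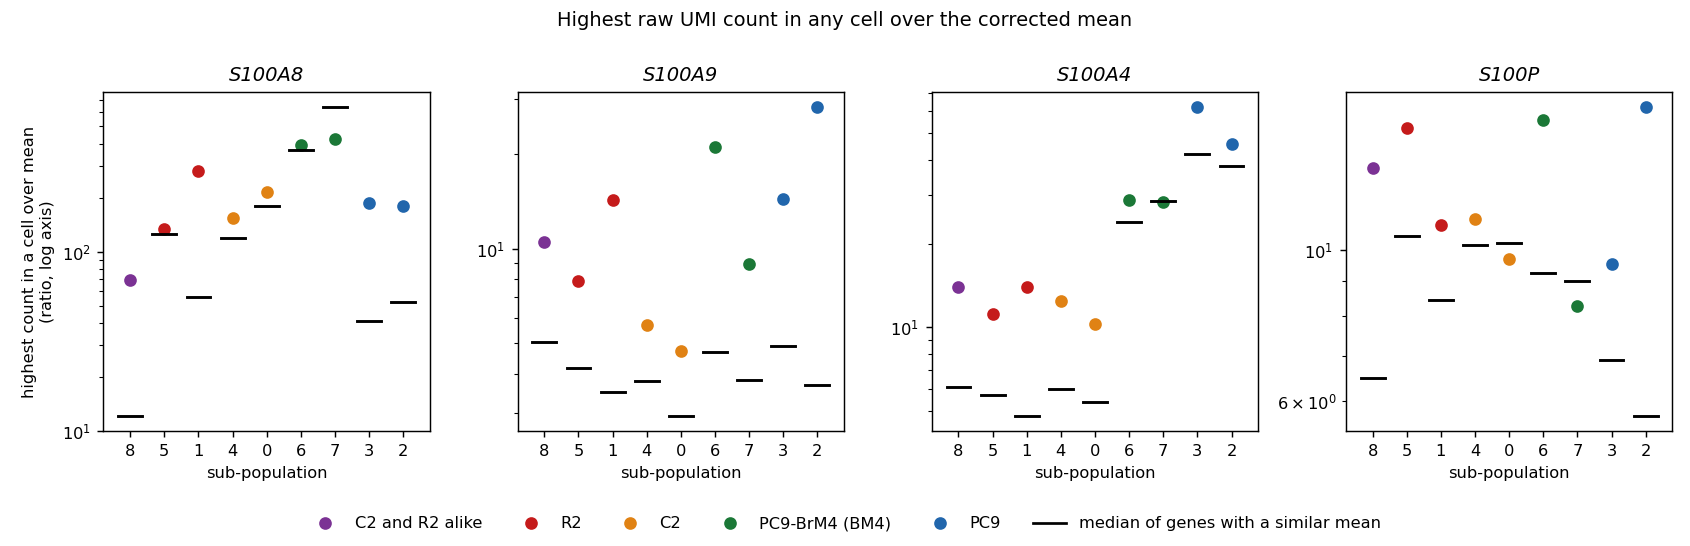
Highest raw UMI count in any cell (upper bound) divided by the mean corrected UMIs per cell, log axes, for S100A8, S100A9, S100A4 and S100P in sub-populations 0 to 8. Black bars give the median of the same ratio for genes whose mean is within a factor of 2, and S100A9 lies above its bar in all 9 sub-populations.

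The smaller sub-populations 9 to 18 were each set against the mean of 0 to 7. S100A9 was lower in 9, at 153 against 825 CPM (−2.26), where 2 of 7406 genes (0.027%) were called lower, and in 12, at 223 CPM (−1.73), where 3.54% of genes were. S100A4 was lower in 11, at 5.61 CPM (3.97 to 7.70) against 113 CPM (−2.53, 1.01% of genes lower), with an interval that overlapped that of the PC9 sub-population 3. S100P was lower in 10 (41.9 against 108 CPM, −1.14, 2.82% of genes lower) and higher in 18, where it had its highest value, 378 CPM (349 to 410; 1.89, 1.55% of genes higher). S100A2 was higher in 15, at 57.3 against 18.2 CPM (1.45), where 8.4% of genes were called higher. In 16, 7 members were called lower, but so were 75.2% of all genes, and after centring on the median gene none was. No member was called in 13, 14 or 17. In 14, S100A6 and S100A11 had the highest values of the 19, 3989 and 2993 CPM. The relative raw depth there was 0.408 and the median gene was at −0.52, and both members were called higher after centring on it. With the second deposited table the calls of S100A9 in 12 (−1.06) and S100P in 18 (1.0005) ended, because they no longer lay outside the range of 0 to 7, and with a pseudocount of 20 that of S100P in 10 (−0.95) did. S100A2 in 15 was not measured with a limit of 50 CPM.

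Proteins that S100 members bind and receptors they signal through were read from lists. Of 20 measured partners none was called in C2 and R2 against PC9 and BM4, and the median was −0.09. The 2 that differed most were nucleolin (NCL, −0.94) and CACYBP, the S100A6 partner (−0.57). MYH9, the myosin heavy chain bound by S100A4, was the 1 partner called of 21 measured in R2 against C2, at 164 against 335 CPM (−1.01). That is just past the limit of 1, and 25 of 7133 genes (0.35%) were called there, all lower. NCL (−0.85), IQGAP1 (−0.84), EZR (−0.75), AHNAK (−0.74) and MYH10 (−0.72) were lower too without a call, and 5 partners were above 0. After the correction for transcript length 10 genes were called lower in this comparison. Whether MYH9 was among them, and how the correction moved the other partners named, was not recorded. Of 8 measured annexins none was called in any of the 5 comparisons. ANXA2, the partner of S100A10, was at 1395 against 994 CPM in C2 and R2 against PC9 and BM4 (0.49), while S100A10 was at −0.71 there. ANXA5, which binds phosphatidylserine on membranes, was at −0.50. Of 6 measured receptors, MCAM, an adhesion molecule that binds S100A8 with S100A9, was higher in C2 and R2 (28.4 against 11.1 CPM, 1.19) and in BM4 against PC9 (18.1 against 4.01 CPM, 1.36). In BM4 against PC9 it passed the limit of 10 CPM only through its level in BM4. ALCAM, an adhesion molecule that also binds S100 proteins, was lower in both comparisons, at 11.2 against 47.0 CPM (−1.59) and at 26.0 against 67.9 CPM (−1.23). CD68, held on the same list, was higher in C2 and R2 by 1.08. Of all measured genes, 1.42% were called higher and 1.03% lower in C2 and R2 against PC9 and BM4. In BM4 against PC9 the shares were 0.0925% and 0.383%. These comparisons share sub-populations, since BM4 and PC9 stand on both sides.

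Of 21 other measured calcium-binding proteins with EF hands, none was called in any of the 5 comparisons. With 1.42% of all genes called higher and 1.03% lower in C2 and R2 against PC9 and BM4, and fewer in the others, a count of 0 in lists of this size is near the background. The largest difference in C2 and R2 against PC9 and BM4 was that of calumenin (CALU), a protein of the secretory pathway, at 129 against 64.9 CPM (0.92), followed by NUCB2 at −0.47. Of the genes of epidermal differentiation, 4 of 33 were measured in that comparison and the keratin KRT6B was called higher, at 19.1 against 5.97 CPM (1.16). KRT6B passed the limit of 10 CPM only through its level in C2 and R2. In sub-population 8, 5 genes of this list were measured, all 5 above 0 and none called, with KRT16 at 28.6 against 14.6 CPM (0.78) and KRT6B at 27.7 against 19.1 CPM (0.45).

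By position, 9 of the members are on chromosome 1 and S100P is on chromosome 4 (GRCh38, GENCODE 44). S100A10 (151982915 to 151993859) and S100A11 (152032506 to 152047907) lie apart from S100A9 (153357854 to 153361023), S100A8 (153390032 to 153391073), S100A6 (153534599 to 153536244), S100A4 (153543613 to 153550136), S100A2 (153561108 to 153567890), S100A16 (153606886 to 153613145) and S100A14 (153614255 to 153616986). S100A4 overlaps S100A3 on the same strand, and S100A6 and S100A11 overlap non-coding genes on the other strand. How the study's counting treated such reads is not given in the sources used here. S100P spans 6693878 to 6697170.

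Of 41 other protein-coding genes within 500 kb of the chromosome 1 members, 14 were measured in C2 and R2 against PC9 and BM4. Of these, 13 were below 0 and the exception was S100A13 at 0.29. Their median was −0.74, where that of all genes was −0.14, and the 3 largest differences were those of SNX27 (−1.03), ILF2 (−0.97) and GATAD2B (−0.95). S100A10, S100A14 and S100A16 had differences in the range of these neighbours. S100A4, S100A9 and S100A6 lay above all 14, and S100A2 and S100A11 above 13 of the 14. S100A4, at 3.60, stood furthest from the genes around it. In BM4 against PC9 the neighbours leaned the other way. Of 15 measured, 14 were above 0 with a median of 0.21 against −0.11 for all genes, led by SLC39A1 (0.39), ILF2 (0.37) and JTB (0.29). S100A9, at −1.48, was the one measured gene of the interval below −1. SNX27 was the 1 neighbour called, in the first of these comparisons.

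**Figure D5:**
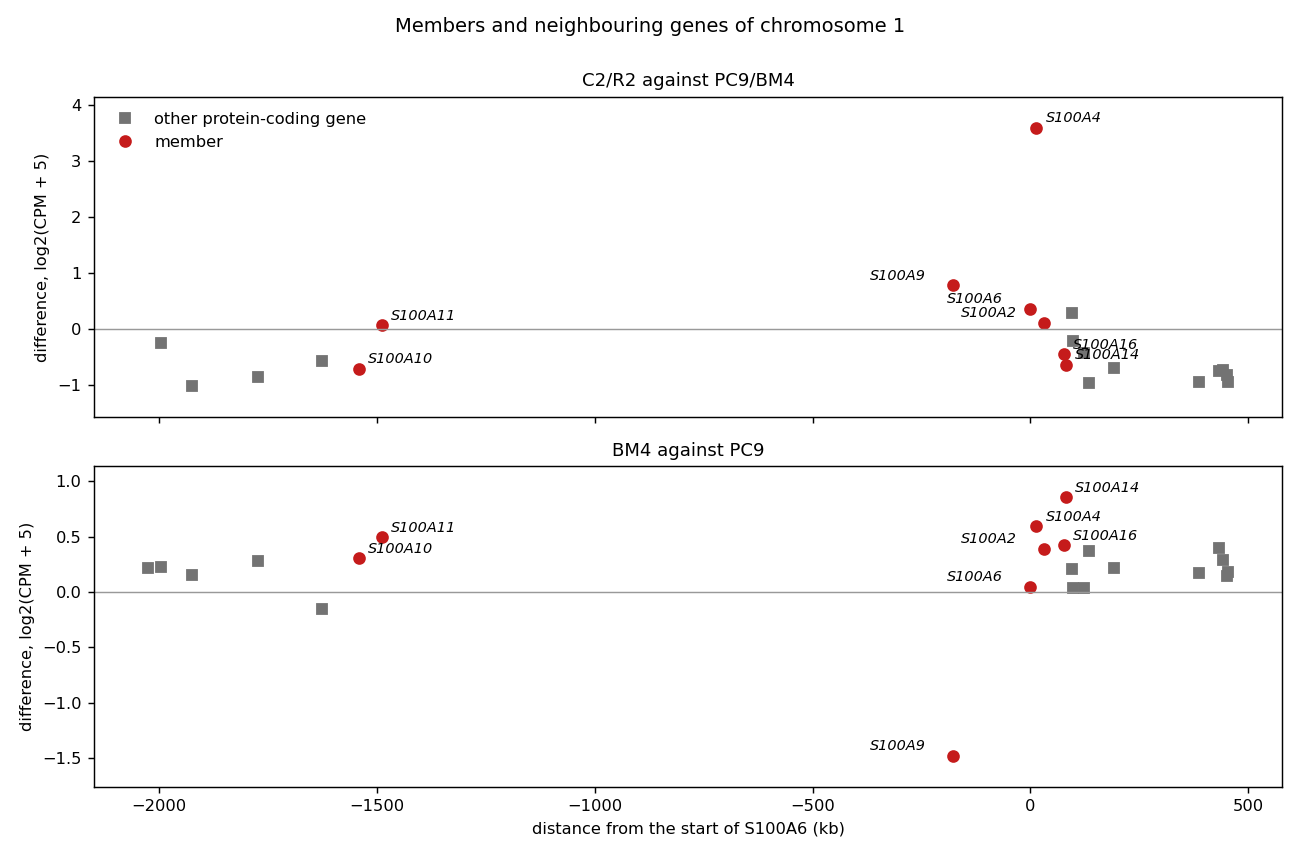
Differences on the log2(CPM + 5) scale of measured members (red circles) and other measured protein-coding genes (grey squares) of chromosome 1 against distance from the start of S100A6 in kb, for C2/R2 against PC9/BM4 (top) and BM4 against PC9 (bottom). In the top panel 13 of 14 neighbours lie below 0 while S100A4 is at 3.60, and in the bottom panel 14 of 15 lie above 0 while S100A9 is at −1.48.

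Pearson's r of log2(CPM + 5) over the 19 sub-populations described which genes had a pattern most like each member among 7275 candidates. The points share libraries and the clustering, and sub-population 16 is low in most genes, so r is given with no test, followed by its value over the 9 sub-populations 0 to 8. S100A4 was most like RAMP1, a receptor partner for calcitonin family peptides (0.97 and 0.98), MGP, the matrix Gla protein (0.97 and 0.97), and CCDC57 (0.95 and 0.96). S100A9 was most like IGFBP2, which binds insulin-like growth factors (0.77 and 0.80), GPRC5A (0.75 and 0.91) and GSTK1 (0.75 and 0.89). S100A8 was most like the surface antigen PSCA (0.71 and 0.91), GPRC5A (0.69 and 0.81) and SLC16A4 (0.65 and 0.93). S100P was most like SQSTM1, the autophagy receptor (0.83 and 0.80), the epithelial factor ELF3 (0.82 and 0.80) and HLA-C (0.78 and 0.65).

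Among the other members, S100A10 was most like the translation factors EEF1B2 (0.98 and 0.98) and EEF1A1 (0.96 and 0.96) and the ribosomal gene RPS18 (0.97 and 0.97), and S100A11 like the ribosomal genes RPL19 (0.95 and 0.81), RPL23A (0.94 and 0.81) and RPL18 (0.94 and 0.87). S100A6 was most like C19orf33 (0.93 and 0.82), the cystatin CST3 (0.93 and 0.95) and RPL37 (0.92 and 0.94). S100A14 and S100A16 had SEC11C (0.91 and 0.95 for S100A14, 0.91 and 0.97 for S100A16) and C1orf43 (0.90 and 0.88, 0.92 and 0.96) in common, the others being EEF1B2 (0.89 and 0.84) and HMGA1 (0.95 and 0.88). S100A2 was most like CDC42EP2 (0.92 and 0.54), PHC2 (0.91 and 0.87) and SOX15 (0.91 and 0.64). Among the members themselves r was highest for S100A14 with S100A16 (0.92 and 0.89), S100A10 with S100A14 (0.91 and 0.88) and S100A10 with S100A16 (0.91 and 0.91). S100A8 with S100A9 had 0.70 and 0.82, and S100A4 with S100A10 had the lowest r of all pairs, −0.47 and −0.88. From the second deposited table r was lower for most of the genes named as like a member. With SEC11C it was −0.20 for S100A14 and 0.33 for S100A16. It was 0.59 for S100A10 with EEF1B2, and 0.59, 0.51 and 0.46 for S100A11 with RPL19, RPL23A and RPL18. For S100A4 it stayed at 0.95 with RAMP1 and 0.91 with MGP.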

How the data were processed

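Single cells of PC9, PC9-BrM4, C2 and R2 were captured by the authors with 10x 3′ version 3 chemistry, 1 library per line, aligned to hg38 with Cell Ranger and normalised in Seurat 3 with sctransform, with the share of mitochondrial reads as a covariate. Cells needed 200 transcripts and genes 3 cells. The corrected table deposited by the authors holds the mean corrected UMIs per cell of each sub-population, a signal that is neither a raw count nor scaled to a fixed total. The other table, as deposited, holds the mean over cells of e to the power of the raw count minus 1, a value of another kind that 1 cell can dominate. Of its low values, 99.99% could be decoded on that reading within 1e-06, and 140 values of 20 genes had overflowed. A value multiplied by the number of cells was whole, which gave the cells per sub-population.

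Columns were rescaled to CPM and compared as the difference of mean log2(CPM + 5) (Python 3.11, pandas 2.3.3, numpy 2.4.6, scipy 1.17.1). For a comparison within lines, a call needed the same sign in all 4 lines, and for 1 sub-population a value outside the range of 0 to 7. Intervals of differences propagate counting error to first order. Relative raw depth assumes Poisson counts and rises with the spread between cells. The call was tested on simulated data before use. The members and lists were chosen with earlier results of these data known. Named genes are the 10 members, the called members of each list or else the 2 with the largest difference, the 3 genes with the highest r for each member, and the 3 chromosome 1 neighbours with the largest differences. Alternatives were the second table (the natural log of its value plus 1, divided by relative raw depth), pseudocounts of 1 and 20, a filter of 50 CPM, no filter, no rescaling, a size of 0.5, each sub-population left out, and differences centred on the median gene or on that of 20 bins of transcript length, which 97.0% to 97.1% of measured genes had. Gene positions came from GENCODE 44, which matched 79.3% of the symbols and all 10 members.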

Additional observations from a re-analysis of the deposited data

Results flagged for a closer look

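In 5 cases, each a member and a pair of lines, the member differed between the mitotic and the non-mitotic sub-population in opposite directions in the 2 lines, each beyond counting error and by at least 0.5 on the log2(CPM + 5) scale. With 1 sub-population of each kind per line, the difference between lines was not tested. S100A9 was lower in the mitotic sub-population of R2 (−0.65, 95% counting interval −0.68 to −0.63) and higher in that of C2 (0.18), BM4 (0.16) and PC9 (0.17), which gives differences between R2 and the other lines of −0.83 for C2, −0.81 for BM4 and −0.82 for PC9. S100P was at 65.3 against 95.2 CPM in R2 and at 81.5 against 75.9 CPM in BM4, a difference of −0.61 between the lines. S100A4 was at 225 against 273 CPM in R2 and at 18.6 against 14.9 CPM in BM4, a difference of −0.52.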

How the results depend on the processing

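Of 1575 member differences recomputed under an alternative, 970 stayed within their counting error. These include every value under the filter of 50 CPM, no filter and the size of 0.5, which change calls but cannot move a difference. Another 602 moved by more, and 3 of the called ones changed sign. All 3 were in sub-population 16: S100A16 was at 0.35 after subtracting the median of genes of like transcript length, and S100A16 and S100A14 were at 0.17 and 0.061 after centring on the median gene, where the median itself was −1.38. S100A4 in C2 and R2 against PC9 and BM4 was called under every alternative run, and R2 against C2 gave no member except S100A2 at a size of 0.5. At that size the members called were 2 in C2 and R2 against PC9 and BM4, 1 in R2 against C2, 4 in BM4 against PC9 and 24 in the 10 smaller sub-populations together, against 13 at a size of 1. With the second table they were 4 in BM4 against PC9 (S100A6 and S100A8 added), 7 in sub-population 8 and 25 in the smaller sub-populations. In this table abundant genes follow the cell with the highest count, and in C2 and R2 against PC9 and BM4 S100A9 turned to −0.29, S100A6 to −0.13 and S100A11 to −0.24. The smaller sub-populations gave 6 calls after correction for transcript length, when the 7 in 16 ended, and 8 after centring, when those 7 ended and S100A6 and S100A11 were called higher in 14. Leaving out 1 sub-population gave counts of 1 to 1 in C2 and R2 against PC9 and BM4, 0 to 0 in R2 against C2, 2 to 3 in BM4 against PC9, 3 to 3 in sub-population 8 and 0 to 0 for mitotic against non-mitotic. The 3 came without the PC9 sub-population 2, when S100A14 was also called higher in BM4. S100A9 in C2 and R2 against PC9 and BM4 ranged from 0.51 to 1.06. Over all genes, centring gave 153 higher and 41 lower calls against 105 and 76 in C2 and R2 against PC9 and BM4, and 52 and 34 against 45 and 44 in sub-population 8. A size of 0.5 gave 428 and 792, and 222 and 430, in these comparisons, 66 and 704 against 0 and 25 in R2 against C2, 54 and 298 against 7 and 29 in BM4 against PC9, and 281 and 3 against 55 and 0 for mitotic against non-mitotic. The second table gave 128 and 196, 414 and 11, 76 and 33, 28 and 183, and 130 and 1 in the same order. A pseudocount of 20 gave 46 and 18, 13 and 16, 0 and 11, 3 and 13, and 25 and 0, and one of 1 gave 144 and 154, 66 and 71, 1 and 54, 11 and 59, and 80 and 0. A filter of 50 CPM, with fewer genes tested, gave 57 and 27, 16 and 27, 0 and 19, 4 and 13, and 23 and 0, and the correction for length 132 and 38, 50 and 35, 0 and 10, 8 and 24, and 29 and 0. Leaving out 1 sub-population gave 54 to 129 lower calls in C2 and R2 against PC9 and BM4, 24 to 74 in sub-population 8, 33 to 75 in R2 against C2 and 23 to 82 in BM4 against PC9. No paired analysis was possible because the sub-populations carry no replicate numbers, and the mitotic sub-populations were paired with the others by line alone.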
